A study of Mus musculus with 10 samples.

Results

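Nuclear tRNA genes lay within 1 kb of 208 of the 1577 loci (13.2%) in a table of Elk1 and Gli2 chromatin immunoprecipitation sequencing signals from mouse cells. The loci were chosen by position alone, as intervals within 1 kb of an annotated nuclear tRNA gene, with mitochondrial tRNA genes left out. The choice used no signal value, although each row of the table had to reach a signal of about 100 in some library to be listed. The label held up against the annotation: 207 of the 208 intervals overlapped a tRNA gene and 1, on chromosome 7, lay 947 bp from n-TLaag4. No locus lay between 1 and 5 kb from a tRNA gene, and the nearest one outside the limit was 6905 bp away. All 208 loci had reached 100 with Gli2 and none with Elk1, and 389 other loci of the table shared that property.

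The libraries came from 5 stages, with 1 antibody to Elk1 and 1 to Gli2, so that 10 libraries were made and each antibody and stage had 1. Day 0, day 4 and day 8 were fibroblasts called tdMEFs in the labels, at those days of neural reprogramming in M9 medium. M9 held N2 and B27 supplements with CHIR99021, LDN193189, A83-01, the Hedgehog agonist Hh-Ag1.5, retinoic acid, SMER28, RG108, Parnate and bFGF, at low oxygen. Reprogrammed ciNSLCs, and pri-NPC as the labels call them, completed the series, and the labels gave no separate culture, donor or clone for either. No genotype was stated, and with no expression measured the identity of the cells could not be checked against marker genes. With 1 library per group no test between stages was possible, and every difference below lacks a replicate check.

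tRNA genes are short genes read by RNA polymerase III, and their promoter lies inside the transcribed sequence. TFIIIC binds the internal box A and box B elements and brings in TFIIIB, which recruits the polymerase. The mouse genome holds many near-identical copies of each tRNA gene, gathered in clusters, some of them among histone genes. Gli2 is a zinc finger transcription factor of the Hedgehog pathway, which patterns the neural tube, and Elk1 is an ETS factor activated by MAP kinases.

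Only 4 whole tRNA genes lay inside the RefSeq promoter windows (GRCm38.p6, the same build as mm10) of neighbouring genes, and all of them had a locus. They are shown, 5′ to 3′ on the tRNA strand, because they give the letters at the centre of these peaks. Capitals mark the anticodon and every exact match to the box A motif TGGCNNAGT or the box B motif GGTTCGA, where N is any base.
n-TTagt9, threonine, chr7:35234770-35234843, minus strand: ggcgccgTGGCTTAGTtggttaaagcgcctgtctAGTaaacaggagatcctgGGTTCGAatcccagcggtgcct
n-TRtcg5, arginine, chr7:79466419-79466491, plus strand: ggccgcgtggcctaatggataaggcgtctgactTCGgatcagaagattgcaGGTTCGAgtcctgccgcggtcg
n-TAagc16, alanine, chr13:21222586-21222657, plus strand: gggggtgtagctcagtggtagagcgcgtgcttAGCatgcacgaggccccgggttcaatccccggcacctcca
n-TVcac9, valine, chr13:23446142-23446214, minus strand: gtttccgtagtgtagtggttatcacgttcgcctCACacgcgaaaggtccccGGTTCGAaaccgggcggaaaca

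The genes were 72 to 74 bp long, and box B began at base 52 or 53 in the 3 that held an exact match. Box A matched exactly in 1 of the 4, at base 8 of n-TTagt9. In n-TAagc16 neither box matched to the letter. Gli2 signals at the locus of n-TRtcg5, which lies beside Polg, were 227.0, 104.4 and 122.2 at days 0, 4 and 8, 280.6 in ciNSLCs and 207.3 for pri-NPC. At n-TAagc16 they were 269.9, 37.6, 69.4, 134.9 and 83.4 in the same order. So both genes stood near each other at day 0, and n-TRtcg5 was higher in each of the other 4 libraries. The locus of n-TTagt9 had Gli2 signals of 238.9, 52.6, 75.3, 186.8 and 177.3, and that of n-TVcac9 218.6, 97.7, 68.3, 200.2 and 131.0. The locus of n-TAagc16 was thus the highest of the 4 at day 0 and the lowest at day 4, in ciNSLCs and with pri-NPC. At day 8 the lowest was n-TVcac9. Whether the signals go with the letters of box A or box B was not tested, and 4 genes are too few for it.

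RefSeq promoter windows of 27 genes overlapped one of the 208 loci, and 2 of these genes shared the same window, which left 26 promoters when the windows of a gene were counted once. On either strand, box B was found in 5 of the 26, against 1.06% of all 26992 promoters counted in the same way, and box A in 3, against 4.73%. Whole tRNA genes lay in 4 of the windows, and box B was found in 3 of these. The choice of windows beside tRNA genes thus fixed part of the box B share. The GLI motif GACCACCCA was found in 0 of the 26 and in 0.289% of all promoters, so rare that 0 of 26 says little. The ETS motif CCGGAAGT was found in 2, against 4.31%, and TATAAA in 5, against 15.7%. Only loci beside a RefSeq gene start could be searched, and a match of letters is a description.

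Of the 408 annotated nuclear tRNA genes considered here, 270 (66.2%) lay within 1 kb of a locus. The share differed by isotype, the amino acid the tRNA carries. All 7 phenylalanine genes and 22 of 24 arginine genes had a locus, as did 23 of 26 leucine genes. Cysteine stood at the other end with 5 of 57 (8.8%), and 49 of those genes lay on chromosome 6, where 1 had a locus. Without cysteine, 265 of 351 genes (75.5%) had one. By chromosome, the share was 101 of 105 on chromosome 13 (96.2%), 40 of 52 on chromosome 11 (76.9%) and 25 of 40 on chromosome 3 (62.5%). It was 4 of 53 on chromosome 6 and 1 of 17 on the X chromosome. The 408 include 5 chromosome 11 entries named in another style, such as Trnat-ugu, at positions from 8361 to 1440467. None had a locus. If they are not separate genes, the total share and those of chromosome 11, threonine, proline, valine and leucine are too low. How reads that match several copies were placed is not given in the sources used here, so signals at near-identical copies, and the absence of a locus at such copies, are uncertain.

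The 208 loci spread over 19 chromosomes and all 20 isotypes, with 46 combinations of isotype and anticodon. Chromosome 13 held 81 loci, chromosome 11 held 24, chromosome 3 held 20 and the others 83. Widths ran from 220 to 1980 bp with a median of 560 bp. In 169 loci the centre of the nearest tRNA gene lay within 100 bp of the locus centre, and the median distance between the centres was 50.5 bp. One tRNA gene was within reach of 127 loci, 2 of 55, 3 of 17 and 4 of 9. In 67 loci the genes within reach carried different amino acids, and each locus was then given the isotype of the nearest gene. Names such as n-TGtcc6 give the amino acid (G, glycine), the anticodon (tcc) and a copy number. They do not mark initiator methionine or selenocysteine genes, so these were not told apart.

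Gli2 signal at the tRNA loci was highest at day 0, had its lowest medians at days 4 and 8, and stood between in ciNSLCs and pri-NPC. The median signal was 269.9 at day 0 (quartiles 213.8 and 333.5, range 99.1 to 573.4) and 60.2 at day 4 (quartiles 37.6 and 97.7, range 0.0 to 255.7). It was 72.3 at day 8 (36.8 and 100.9, range 4.3 to 224.8), 173.9 in ciNSLCs (73.2 and 230.2, range 3.9 to 416) and 135.6 in pri-NPC (82.6 and 194.9, range 6.5 to 355.3). Day 0 was the highest of the 5 Gli2 libraries at 181 loci, ciNSLCs at 19 and pri-NPC at 8. The lowest was day 4 at 105 loci, day 8 at 84, ciNSLCs at 15 and pri-NPC at 4. A signal of 100 was reached by 206 loci at day 0, by 50 at day 4, by 53 at day 8, and by 142 each in ciNSLCs and pri-NPC. In bulk chromatin, fewer cells with Gli2 at a site and less Gli2 per cell cannot be told apart. Nor can either be told apart here from a different scale of the libraries, which is treated below.

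**Figure D1:**
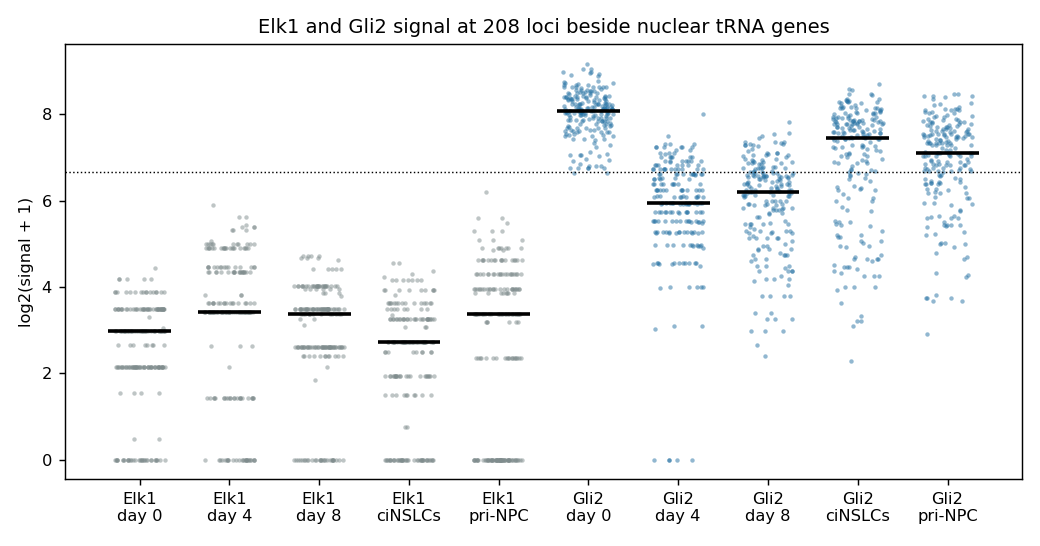
Each point is 1 of the 208 tRNA loci, placed by log2(signal + 1) in each of the 10 libraries, with a bar at the median of the signal and a dotted line at the listing limit of 100. Gli2 at day 0 has a median of 269.9 and the narrowest spread, while the Elk1 medians lie between 5.6 and 9.7.

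Low signals fell on a regular grid, which gave the worth of 1 counted unit in each library and through it a counting error. In the Gli2 libraries 1 unit was worth 11.94, 7.52 and 4.27 at days 0, 4 and 8, 3.00 in ciNSLCs and 5.87 for pri-NPC. The median tRNA locus thus rested on 23, 8 and 17 units at days 0, 4 and 8, 58 in ciNSLCs and 23 for pri-NPC. The total depth is unknown. Intervals below are 95% exact Poisson intervals for 1 signal and exact conditional binomial intervals for a ratio, and they cover counting error only.

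The loci were most alike at day 0, and which library spread them most depended on listing. The SD of log2(signal + 1) over the 208 loci was 0.53, 1.28 and 1.10 at days 0, 4 and 8, 1.38 in ciNSLCs and 1.11 for pri-NPC. Pure counting would give a variance of the counted units equal to their mean. The ratio of variance to mean was 2.64, 3.22 and 6.17 at days 0, 4 and 8, 20.0 in ciNSLCs and 8.01 for pri-NPC, and it grows with the units per locus. It was between 0.818 and 1.47 in the Elk1 libraries. Listing bears on this spread, since 56 loci were in the table through Gli2 day 0 alone and could be low elsewhere, but not low at day 0. Among the 152 loci that reached 100 in another library, the SD was 0.44, 0.68 and 0.72 at days 0, 4 and 8, 0.58 in ciNSLCs and 0.54 for pri-NPC. Day 0 was thus the narrowest in both sets, while the widest was ciNSLCs in all 208 and day 8 in the 152.

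The order of the loci at day 0 carried over only in part. Over the 208 loci, the rank correlation of Gli2 day 0 with the 4 other Gli2 libraries was between 0.52 and 0.59, while those 4 had correlations of 0.71 to 0.89 among themselves, the highest between ciNSLCs and pri-NPC. Among the 152 loci listed elsewhere than day 0, these ranges were 0.34 to 0.45 and 0.47 to 0.76. The points share libraries, stage backgrounds and near-identical sequences, so these values are descriptions.

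Gli2 was at least 2-fold above Elk1 at most of the tRNA loci at every stage. Listing fixes part of this, since all 208 loci had entered the table through Gli2 and none through Elk1, while the table as a whole also holds loci listed through Elk1. Elk1 medians were 6.9, 9.7 and 9.3 at days 0, 4 and 8, 5.6 in ciNSLCs and 9.3 for pri-NPC. That is 1 or 2 counted units per locus, and between 27 and 64 loci had an Elk1 signal of 0 in each library. Gli2 was at least 2-fold higher at 208 of 208 loci at day 0, where 56.2% of all loci of the table were. It was higher at 171 at day 4 (31.3% of all loci), at 193 at day 8 (34.9%), at 196 in ciNSLCs (32.8%) and at 195 in pri-NPC (26.9%). Of the 389 other loci listed through Gli2 alone, 355, 138 and 131 were higher at days 0, 4 and 8, 132 in ciNSLCs and 167 in pri-NPC. Beyond counting error all 208 tRNA loci passed at day 0 (38.6% of all loci), 87 at day 4 (7.48%) and 146 at day 8 (13.0%), with 178 for ciNSLCs (17.9%) and 150 for pri-NPC (14.1%). The day 4 count was 41.8% of the tRNA loci, so that most did not pass there. In 172 loci all 5 Gli2 signals lay above all 5 Elk1 signals, and in 36 the ranges overlapped. The antibodies differ and no input or control antibody library was used here, so the gap compares 2 immunoprecipitations.

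The highest Elk1 signal at any of the loci was 72.5, in pri-NPC at n-TQctg4 (chromosome 3, 96398725 to 96399305). Elk1 at this glutamine tRNA gene was 6.9 at day 0, 38.8 at day 4, 10.2 at day 8 and 16.9 in ciNSLCs. Gli2 there was 341.6 at day 0 and between 30.1 and 84.7 in the other libraries, so that Elk1 and Gli2 were close in pri-NPC. They were also close at day 4, with 38.8 for Elk1 and 30.1 for Gli2. At n-TMcat13, a methionine tRNA gene (chromosome 13, 21326445 to 21326945), Elk1 was 58.1 at day 4 and 0.0 to 14.5 in the other 4 libraries. At n-TKctt17, a lysine tRNA gene (chromosome 12, 70968865 to 70969445), it was 48.4 at day 4 and 5.1 to 18.6 in the others. A proline locus, n-TPagg4, also stood at 48.4 at day 4. No Elk1 value of the group was higher than these 4, and all lay below 100. Their counting intervals were wide, 23.6 to 169.3 at n-TQctg4, 21.3 to 126.6 at n-TMcat13 and 15.7 to 113.1 at n-TKctt17.

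Day 4 and day 8 of reprogramming were set against day 0. Of the 208 loci, 201 were at least 2-fold lower at day 4, as were 54.2% of all loci, and 0 were higher, against 17.1% of all loci. Counting only differences beyond counting error, 194 were lower, against 32.3% of all loci, and 0 higher, against 0.571%. The median log2 difference was -2.05, with quartiles of -2.64 and -1.54, against -1.22 over all loci. At day 8, 194 loci were lower (57.0% of all loci) and 0 higher (16.7%), with 192 lower (38.3%) and 0 higher (0.0634%) beyond counting error. The median log2 difference at day 8 was -1.96, against -1.39 over all loci. The share of lower loci was larger than in the table as a whole, but listing bears on it, since 206 of the 208 reached 100 at day 0 and 56 of them in no other library. Of the 152 tRNA loci that a library outside each comparison had listed, 145 were lower at day 4 and 138 at day 8, with medians of -1.89 and -1.76. The 389 other loci listed through Gli2 alone differed more, with 328 lower, 14 higher and a median of -2.74 at day 4, and 339 lower, 9 higher and a median of -2.96 at day 8. A lower signal at these days was thus also found at other loci listed through Gli2. Listing bears on those as well, since 337 of the 389 reached 100 at day 0, 27 at day 4 and 12 at day 8. They therefore cannot show whether the lower signal was particular to the tRNA loci. These comparisons, and those of ciNSLCs and pri-NPC with day 0, share the same day 0 library.

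The size of these differences hangs on the scale of the day 0 library. Scaling every library to the same median over all 1577 loci moves the log2 values by -1.26, -0.01 and 0.22 at days 0, 4 and 8, -0.01 in ciNSLCs and -0.40 for pri-NPC. Relative to that median, 75 tRNA loci were lower and 0 higher at day 4, and 61 were lower and 1 higher at day 8. The medians of the log2 difference became -0.81 and -0.49. The day 0 median of all loci is itself raised by loci that were listed through that library.

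The ciNSLCs and pri-NPC were closer to day 0. In ciNSLCs 84 tRNA loci were at least 2-fold lower than at day 0 (45.9% of all loci) and 0 higher (21.2%), and the same counts of 84 lower (32.0%) and 0 higher (0.761%) held beyond counting error. The median log2 difference was -0.78, with quartiles of -1.60 and -0.31, against -0.79 over all loci. The share of lower loci was thus near that of the table. It rests in part on listing, since 26 of the 144 tRNA loci that another library had brought into the table were lower. A 3-fold limit left 53 of the 208. In pri-NPC 107 loci were lower (41.0%) and 0 higher (24.7%), of which 104 lower (29.2%) and 0 higher (2.16%) were beyond counting error, and the median log2 difference was -1.01, against -0.60. Listing by another library left 50 of 142, and a 3-fold limit 61 of 208. After median scaling the direction in ciNSLCs turned, with 39 loci lower, 40 higher and a median of 0.46, while in pri-NPC 41 were lower and 8 higher with a median of -0.15. Which way the tRNA loci as a group moved between day 0 and ciNSLCs therefore depends on the scale.

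**Figure D2:**
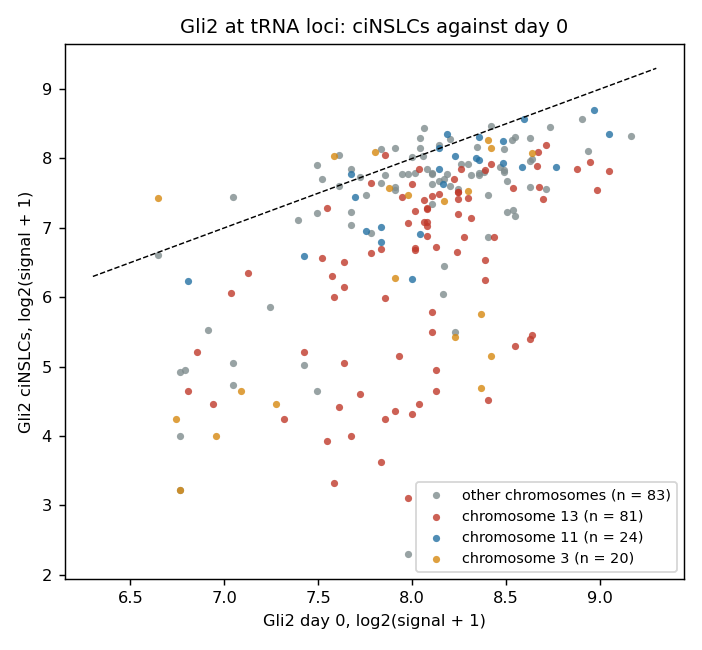
Gli2 log2(signal + 1) at day 0 on the horizontal axis and in ciNSLCs on the vertical axis, 1 point per tRNA locus, coloured by chromosome, with the dashed line of equal signal. Loci of chromosome 11 and of the other chromosomes gather below the line, and many of those on chromosomes 13 and 3 reach far down. The lowest in ciNSLCs, at 3.9, is n-TGtcc1 on chromosome 1. The 15 loci under 20 in ciNSLCs had day 0 signals of 106.2 to 254.4, below the day 0 median of 269.9.

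From day 8 to ciNSLCs, Gli2 signal was higher at many of the loci. At least 2-fold higher signals in ciNSLCs were found at 117 of the 208 loci (33.0% of all loci) and lower ones at 6 (18.5%). Beyond counting error 106 were higher (13.1%) and 1 was lower (4.44%). The median log2 difference was 1.07, with quartiles of 0.71 and 1.42, against 0.40 over all loci. It was 0.85 after median scaling, so this direction did not turn. Against pri-NPC, ciNSLCs had 16 loci lower (29.9%) and 6 higher (15.0%), with 11 lower (9.32%) and 5 higher (1.46%) beyond counting error, and a median log2 difference of 0.12, against -0.25. With median scaling these counts were 7 lower and 32 higher. Before that scaling both 2-fold shares were below those of the table. Beyond counting error the 5 higher loci were 2.4% of the 208, above the 1.46% of the table.

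The other 389 loci that reached 100 with Gli2 only had lower signals. Their Gli2 medians were 107.5, 15.0 and 12.8 at days 0, 4 and 8, 12 in ciNSLCs and 13.0 for pri-NPC. In ciNSLCs 310 of them were at least 2-fold lower than at day 0 and 26 higher, with a median log2 difference of -3.06. Their day 0 median sits just above the listing limit, with quartiles of 107.5 and 119.5, so most of them were listed near the limit, whereas the tRNA loci were listed well above it.

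Gli2 medians differed by chromosomal cluster, least at day 0. Listing bears on this, since 56 of the 208 loci entered through day 0 alone and could be low elsewhere, but not at day 0. On chromosome 13 all 81 loci reached 100 at day 0 and 43 in ciNSLCs. At day 0 the medians were 287.8 on chromosome 11, 274.8 on the other chromosomes, 269.9 on chromosome 13 and 244.9 on chromosome 3, all within each other's quartiles. In ciNSLCs they were 233.6, 210.8, 103.5 and 121.2 in that order, and in pri-NPC 190.0, 177.3, 101.0 and 85.1. At day 4 they were 82.7, 82.7, 52.2 and 41.2, and at day 8 105.7, 83.8, 58.2 and 51.0. The medians of chromosome 11 and of the other chromosomes thus stood above those of chromosomes 13 and 3 in all 5 libraries, and the neighbours in each pair differed less than their quartiles spread. In Elk1 no such order appeared, with cluster medians between 2.8 and 19.4.

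**Figure D3:**
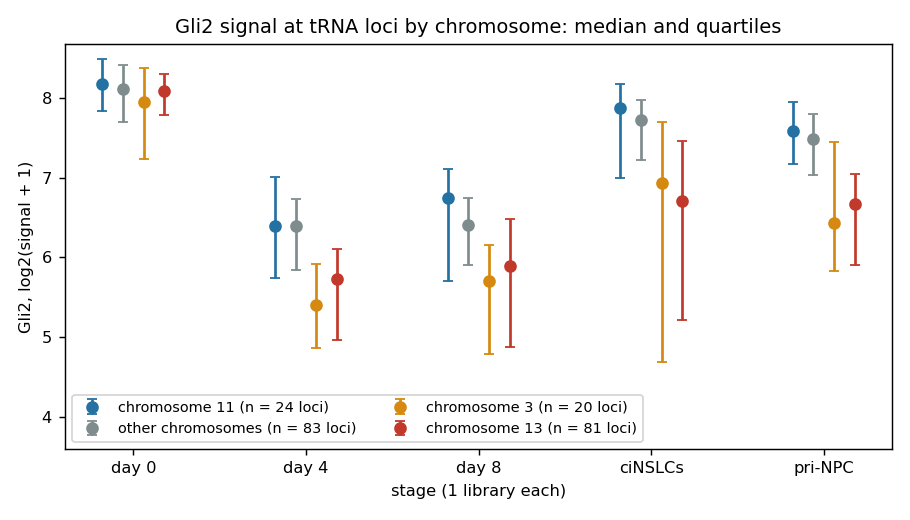
Median Gli2 signal of the tRNA loci on chromosomes 11, 3, 13 and all others at each stage, as log2(signal + 1), with bars from the lower to the upper quartile. The 4 groups lie together at day 0, and chromosomes 3 and 13 lie below the other groups from day 4 on.

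Between ciNSLCs and day 0, 51 of 81 chromosome 13 loci were at least 2-fold lower and 10 of 20 on chromosome 3, against 3 of 24 on chromosome 11 and 20 of 83 elsewhere. All of these were beyond counting error. Over all loci of the table, 45.9% were at least 2-fold lower. The median log2 differences were -1.24 on chromosome 13, -1.21 on chromosome 3, -0.45 on chromosome 11 and -0.44 elsewhere. The same 4 clusters in pri-NPC had 63, 13, 5 and 26 loci lower, where 41.0% of all loci were. At day 8 the counts in the same order were 81 of 81, 18 of 20, 22 of 24 and 73 of 83, where 57.0% of all loci were lower. By these counts chromosome 3 did not stand apart from chromosome 11 and the others at day 8, where most loci of every cluster were lower. By the size of the difference it did. The median log2 differences at day 8 were -2.27 on chromosome 13, -2.49 on chromosome 3, -1.66 on chromosome 11 and -1.75 elsewhere.

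A comparison within 1 library does not depend on the scale between libraries, but listing through day 0 still bears on it. The log2 ratio of the chromosome 13 median to the median of the other 127 loci was -0.03, -0.52 and -0.47 at days 0, 4 and 8, -0.99 in ciNSLCs and -0.80 for pri-NPC. Isotype makeup was held fixed by comparing loci with the same isotype and anticodon, which 28 families had both on and off chromosome 13. The median over the families was -0.06, -0.79 and -0.64 at days 0, 4 and 8, -0.90 in ciNSLCs and -0.84 for pri-NPC. The chromosome 13 copies were lower in 15 of 28 families at day 0, in 22 at days 4 and 8 and in 23 in ciNSLCs and pri-NPC. So copies of the same tRNA family differed between chromosomes in the other 4 libraries by a similar amount as the clusters as wholes. In Elk1 the same family medians ran from 0.00 to 1.14.

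Alanine and serine tRNA genes, with their anticodons pooled, differed between chromosome 13 and elsewhere in ciNSLCs. The 11 alanine loci on chromosome 13 had ciNSLC signals of 21.9 to 190.5 with a median of 116.9, and the 4 elsewhere 242.1 to 377 with a median of 301.0, without overlap. The 7 serine loci on chromosome 13 ran from 14.3 to 185.2 with a median of 44.3, and the 7 elsewhere from 191.9 to 314.3 with a median of 279.7, again without overlap. For leucine the medians were 227.1 on chromosome 13 and 221.3 elsewhere, so that the isotypes did not all follow the same order. At day 0 the medians on chromosome 13 and elsewhere were 278.3 and 391.8 for alanine, 258.0 and 281.8 for serine, and 334.5 and 276.5 for leucine. The alanine medians thus differed at day 0 already, though the ranges overlapped, 266.4 to 397.8 and 238.9 to 573.4. Alanine, serine and leucine were picked here after their values were seen.

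Chromosome 13 carried 2 runs of loci with gaps under 1 Mb. The first, from 21160505 to 22050925, held 50 loci and 45 annotated protein-coding genes, 23 of them with histone symbols such as H2bc13, H2ac13 and H4c11. The second, from 23270185 to 23530585, held 31 loci. Their medians were 265.7 and 269.9 at day 0, and 103.2 and 104.9 in ciNSLCs. The day 4 medians were 45.1 and 52.6, those of day 8 40.5 and 69.4, and those of pri-NPC 101.0 and 95.2. The medians of the runs were thus farthest apart at day 8, and inside each run the ciNSLC signals ranged widely, from 7.6 to 291.7 and from 9.0 to 245.1.

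Inside the first run, 18 neighbouring loci from 21896665 to 21996785, a stretch of 100 kb, were low together. Its bounds were chosen after the values were seen, so its values are a description. The stretch holds 8 isotypes. Its median Gli2 signal was 218.6, 37.4 and 31.7 at days 0, 4 and 8, 34.1 in ciNSLCs and 57.0 for pri-NPC. All 18 loci reached 100 at day 0, and 16 of 18 were below 100 in ciNSLCs, so listing bears on this stretch too. The median log2 difference of ciNSLCs from day 0 was -2.53. The other 63 loci of chromosome 13 had medians of 269.9 at day 0, 134.2 in ciNSLCs and 106.9 for pri-NPC, still below the 207.1 and 176.7 of the 127 loci on other chromosomes.

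The 2 loci of the stretch that reached 100 in ciNSLCs are given beside its 2 lowest by mean Gli2 signal. At n-TMcat8, a methionine tRNA gene, Gli2 was 254.4, 59.3 and 69.4 at days 0, 4 and 8, 197.2 in ciNSLCs and 135.6 for pri-NPC. At n-TDgtc12, an aspartate tRNA gene, it was 408.4, 90.2, 128.1, 191.9 and 136.9. At n-TSaga6, a serine tRNA gene at 21927865 to 21928205, it was 121.7, 0.0, 9.6, 21.0 and 29.3. At n-TKttt22, a lysine tRNA gene at 21971825 to 21972085, it was 111.1, 7.5, 12.8, 24.0 and 12.4. Day 0 was the highest library at all 4, and the first pair stayed above 100 in ciNSLCs and pri-NPC while the second pair did not.

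**Figure D4:**
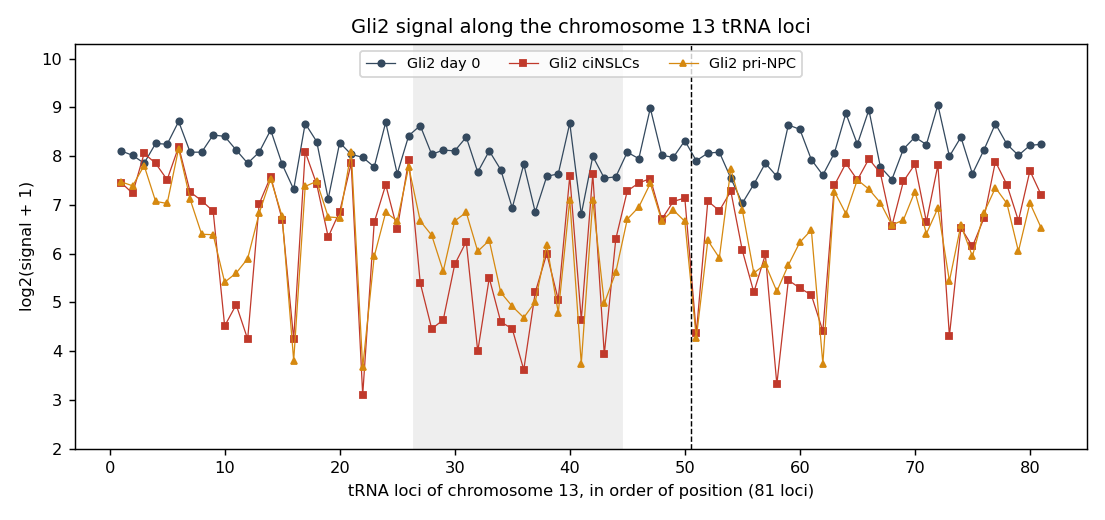
Gli2 log2(signal + 1) at the 81 tRNA loci of chromosome 13 in their order along the chromosome, for Gli2 day 0, ciNSLCs and pri-NPC, with the 18-locus stretch shaded and a dashed line between the 2 runs. The day 0 signals lie between 111.1 and 529.2, and the ciNSLC and pri-NPC lines dip together at many of the same loci.

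A similar block lay on chromosome 3. From 96332525 to 96501785, 13 loci had a median Gli2 signal of 234.1, 37.6 and 37.8 at days 0, 4 and 8, 34.6 in ciNSLCs and 72.4 for pri-NPC, with a median log2 difference of -2.61 between ciNSLCs and day 0. The block was not uniform. At its low side, n-THgtg1, a histidine tRNA gene at 96463925 to 96464145, had Gli2 signals of 107.5, 15.0, 17.1, 8.3 and 11.7 from day 0 to pri-NPC. At its distal edge, n-TKctt16, a lysine tRNA gene at 96499225 to 96499765, had 191.1, 118.5, 132.4, 260.8 and 153.9. The next locus, nearest to n-TGtcc7, a glycine tRNA gene, with 4 tRNA genes within reach at 96500065 to 96501785, had 338.0, 150.4, 118.0, 307.4 and 224.9. Loci of this block thus differed by more than their counting intervals in ciNSLCs, 1.9 to 26.3 at n-THgtg1 and 209.0 to 321.9 at n-TKctt16.

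Loci that stood alone kept more of their day 0 signal. The 53 loci with no other tRNA locus within 1 Mb had medians of 269.9 at day 0 and 217.5 in ciNSLCs, and 50 of them reached 100 in ciNSLCs. The 140 loci in runs of 5 or more had the same median of 269.9 at day 0 and 128.7 in ciNSLCs, where 80 reached 100. The 15 loci in runs of 2 to 4 had 286.7 and 208.5. In pri-NPC the medians were 194.9 for loci alone and 107.2 for those in runs of 5 or more. Of the 140 loci in long runs, 95 lay on chromosomes 13 and 3, in 3 of the 10 such runs, so run length and chromosome were not separated. Listing through day 0 bears on this contrast as well.

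Median Gli2 signals were higher with more tRNA genes within 1 kb in each library but that of pri-NPC. With 1, 2, 3 and 4 genes, Gli2 medians at day 0 were 262.8, 274.8, 302.2 and 397.8, and in ciNSLCs 145.5, 182.2, 194.2 and 269.8. The day 4 medians were 52.6, 67.2, 82.7 and 127.8, and those of day 8 59.8, 81.2, 94.0 and 141.0. In pri-NPC they were 118.0, 164.9, 153.9 and 211.2, so that loci with 3 genes stood below those with 2. At day 0 the 9 loci with 4 genes had quartiles of 357.1 and 418.1, above the upper quartiles of the other groups, but a range of 107.5 to 529.2 that overlapped them. Wider intervals hold more genes, and whether the authors' signal scales with interval width is not given in the sources used here.

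By isotype, tyrosine had the highest day 0 median and glutamine the lowest ciNSLC median. At day 0 the 20 isotype medians ran from 198.8 for histidine (6 loci, quartiles 137.9 and 271.4) through 212.6 for glutamine (12 loci, quartiles 152.9 and 302.2) to 433.6 for tyrosine (6 loci, quartiles 281.3 and 484.7). After tyrosine came glycine with 326.1, and then alanine and leucine with 305.7 each. Neighbours in this order differed by less than their quartiles spread, and the tyrosine loci overlapped the others, with a range of 194.7 to 529.2. In ciNSLCs the order was another: 57.0 for glutamine (quartiles 23.8 and 172.7), 98.9 for isoleucine and 115.1 for histidine at the low end, and 227.1 for tyrosine, 222.1 for leucine and 218.2 for aspartate at the high end. The ciNSLC quartiles of glutamine reached above the medians of 9 other isotypes, so the order is loose. It also rests on loci shared between isotypes. Among loci with a single isotype in reach the ciNSLC medians were 129.4 for tyrosine (4 loci), 161.9 for leucine (10 loci) and 63.0 for aspartate (3 loci), and the highest were then 207.1 for glycine (9 loci) and 204.7 for arginine (14 loci). Glutamine was the lowest in both counts.

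**Figure D5:**
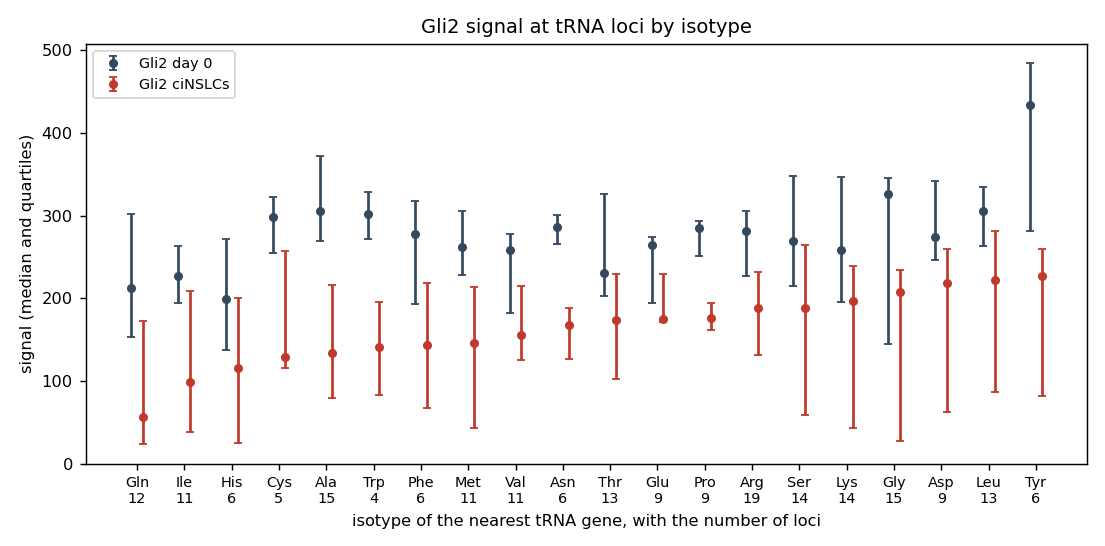
Median Gli2 signal of the tRNA loci of each isotype at day 0 and in ciNSLCs, with bars from the lower to the upper quartile, ordered by the ciNSLC median, and with the number of loci under each name. Glutamine is lowest in ciNSLCs at 57.0 and tyrosine highest at 227.1, a place that tyrosine loses at 129.4 when only loci with a single isotype are counted, and the bars of most isotypes overlap.

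The ciNSLC medians of glutamine loci were low both on and off chromosome 13, but off it 3 of the 6 loci reached 100. The loci of n-TQctg5, n-TQctg4 and n-TQctg3 lay in the low chromosome 3 block described above. Isotype and cluster were therefore not separated there. The 6 on chromosome 13 had a ciNSLC median of 57.0 and a range of 18 to 182.2, and the 6 elsewhere had 78.8 and a range of 18 to 326.8. The highest, n-TQctg6 on chromosome 11 (69124005 to 69125505), lay in an interval with 4 tRNA genes of different isotypes and had Gli2 signals of 529.2 at day 0 and 326.8 in ciNSLCs. Counting only the 8 glutamine loci whose neighbourhood held a single isotype, the ciNSLC median was 35.3. Of the 12 glutamine loci, 7 were at least 2-fold lower in ciNSLCs than at day 0, where 45.9% of all loci of the table were. Glutamate and proline had 1 of 9 each. The glutamine share was close to that of isoleucine, with 7 of 11, and methionine, with 7 of 11.

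The strongest loci over all 5 Gli2 libraries were spread over 3 chromosomes. At n-TGtcc6 on chromosome 11 (69040245 to 69042225), with a proline, an aspartate and a tryptophan tRNA gene also within 1 kb, Gli2 was 500.4 at day 0 (interval 361.4 to 677.9), 255.7 at day 4, 224.8 at day 8, 416 in ciNSLCs (350.5 to 492.3) and 355.3 for pri-NPC. Its ciNSLC to day 0 ratio of 0.831 (0.585 to 1.20) did not exclude equality. At n-TAagc15 on chromosome 5 (30887825 to 30888865) Gli2 was 477.8, 142.9, 187.3, 377 and 334.5, with a ratio of 0.789 (0.551 to 1.16). At n-TAtgc5, an alanine tRNA gene on chromosome 5 (125408745 to 125409865), it was 573.4, 104.8, 163.3, 318.7 and 343.6, and the ratio of 0.556 (0.391 to 0.797) lay below 1. At n-TLcaa1, a leucine tRNA gene and the strongest of chromosome 13 (21199965 to 21200645), it was 418.1, 150.4, 160.7, 291.7 and 284.2, with a ratio of 0.698 (0.469 to 1.06). All 4 had day 0 as the highest library and stayed above 100 in every Gli2 library. The choice of the highest means over these same libraries made the latter likely.

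At the other end, 15 loci had Gli2 signals under 20 in ciNSLCs, 9 of them on chromosome 13 and 3 on chromosome 3. Their day 0 signals ran from 106.2 to 254.4. The lowest ciNSLC to day 0 ratio was that of n-TGtcc1, a glycine tRNA gene on chromosome 1 (171064425 to 171064805), with Gli2 signals of 250.9, 21.2 and 6.9 at days 0, 4 and 8, 3.9 in ciNSLCs and 41.1 for pri-NPC. The ciNSLC signal rested on 1 unit (interval 0.1 to 16.7), and the ratio was 0.0155 (0.000289 to 0.0744). At n-TLtaa2, a leucine tRNA gene on chromosome 13 (21847825 to 21848205), signals were 250.9, 37.6, 5.3, 7.6 and 11.7, with a ratio of 0.0303 (0.00685 to 0.120). At n-TIaat3, an isoleucine tRNA gene on chromosome 13 (23396925 to 23397305), they were 191.1, 7.5, 8.5, 9.0 and 36.5, with a ratio of 0.0471 (0.0088 to 0.165). The next interval on chromosome 1, nearest to n-TDgtc3 (171065185 to 171065525), had 107.5, 0.0, 6.9, 29.3 and 30.6. The day 4 signal of 0 there allows up to 27.7 by its interval.

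The largest ratios in the other direction were small. At n-TEctc12, a glutamate tRNA gene on chromosome 3 (97157965 to 97158425), Gli2 was 99.1, 45.1 and 28.3 at days 0, 4 and 8, 170.9 in ciNSLCs and 131.7 for pri-NPC, with a ciNSLC to day 0 ratio of 1.72 (0.850 to 4.34). At n-TKctt16 the ratio was 1.36 (0.796 to 2.5), and at n-TRccg2, an arginine tRNA gene on chromosome 17 (23549985 to 23550545), 1.35 (0.805 to 2.52). All 3 intervals held 1. The locus of n-TEctc12 and the chromosome 7 locus 947 bp from n-TLaag4 were the 2 that did not reach 100 at day 0, each at 99.1. The latter had Gli2 signals of 67.7, 81.2, 96.8 and 130.4 at the other stages and was listed through pri-NPC alone.

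The highest locus of each of the 19 isotypes with at least 5 loci was highest at day 0 in 16 cases, in pri-NPC in 2 and in ciNSLCs in 1. The lowest library was day 4 in 13 of them and day 8 in 6. At n-TYgta10, the highest tyrosine locus (chromosome 14, 51089285 to 51089905), Gli2 was 489.8, 112.8, 183.7, 275.1 and 177.3 from day 0 to pri-NPC. At n-TIaat8, the highest isoleucine locus (chromosome 13, 23437805 to 23439025), it was 493.3, 112.3, 115.3, 245.1 and 159.1. At n-TEctc10, the highest glutamate locus (chromosome 11, 58301865 to 58302745), it was 385.8, 134.9, 105.2, 380 and 294.0. Day 0 was highest and day 4 or day 8 lowest in all 3, and in the glutamate locus ciNSLCs came within counting error of day 0, with a ratio of 0.985 (0.672 to 1.52).

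Over these 19 loci the ciNSLC to day 0 ratio ran from 0.497 to 1.06. Its interval held 1 at 16 and lay below 1 at 3, the isoleucine, tyrosine and glutamine loci. These loci were picked by a high mean over all Gli2 libraries, ciNSLCs included. Loci low in ciNSLCs were thus unlikely to be picked, and the ratios do not stand for the 208 loci. Of the 208, 84 were at least 2-fold lower in ciNSLCs than at day 0, as were 45.9% of all loci. The ratio was 0.618 (0.435 to 0.905) at the glutamine locus n-TQctg6. At n-TRcct1, the highest arginine locus (chromosome 6, 38533685 to 38534365), Gli2 was 293.8, 104.8, 154.8, 311.1 and 341.0, with a ciNSLC to day 0 ratio of 1.06 (0.670 to 1.69). At n-TDgtc16, the highest aspartate locus (chromosome 10, 91181785 to 91182365), it was 341.6, 120.3, 129.2, 353.3 and 350.1, a ratio of 1.03 (0.676 to 1.59). At n-TStga3, the highest serine locus (chromosome 10, 63429185 to 63429765), it was 369.0, 179.6, 95, 308.1 and 241.9, a ratio of 0.835 (0.554 to 1.29). None of these 3 intervals excluded 1, and all 3 loci lay off chromosomes 13 and 3. On chromosome 13 the interval also held 1 at n-TLcaa1 and at n-TMcat7, the highest methionine locus, with 0.881 (0.542 to 1.48). The tyrosine and glutamine loci with intervals below 1 lay on chromosomes 14 and 11.

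The highest cysteine locus came from the family with the lowest coverage. At n-TCgca55 on chromosome 11 (97987965 to 97988545), beside n-TCgca54, Gli2 was 322.5, 90.2 and 106.2 at days 0, 4 and 8, 257.1 in ciNSLCs and 184.5 for pri-NPC, with a ciNSLC to day 0 ratio of 0.797 (0.514 to 1.28). The 5 cysteine loci ran from 227.0 to 338.0 at day 0 and from 75.9 to 260.3 in ciNSLCs. Where a cysteine tRNA gene had a locus at all, its day 0 signal thus lay in the range of the other isotypes.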

How the data were processed

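Elk1 and Gli2 chromatin immunoprecipitation libraries from 5 stages were grouped by their labels, 1 library per group. Formaldehyde-fixed chromatin was sheared and immunoprecipitated, and PCR-amplified libraries without a stated molecular identifier were sequenced as single reads, per the labels' protocols. Build mm10 and the tools Bowtie2, SAMtools, FastQC and CASAVA 1.8.4 are listed, with no role, per the submitters' processing notes. How peaks were called and how the signal was computed, scaled and corrected is not given in the sources used here. A single locus table was deposited by the authors, holding 1 signal column for each of the 10 libraries, all matched by name. Whether its coordinates count from 0 or 1 is not stated.

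Loci were joined to nuclear tRNA genes of RefSeq GRCm38.p6, which gives no strand or exons, and neighbouring loci can share a gene. Signals were compared as log2(signal + 1), which understates differences of low signals, and 2-fold counted as higher or lower; printed ratios are of the signals themselves. For each library the worth of 1 counted unit, with a background step shared by both antibodies of a stage (8.4, 8.0, 5.9, 6.7 and 5.2), was fitted to signals below 60 within 0.06, and 85.1 to 96.3% of those signals fell on it. That the grid is a scaled count less a scaled background is read from the values. Intervals (95%) ignore that subtraction, and reads without molecular identifiers are not independent molecules. The scripts were tested on simulated data.

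Named loci followed a rule: the 4 highest and 4 lowest Gli2 means, the extremes of each cluster, the 3 largest and smallest ciNSLC differences from day 0, the 3 highest Elk1 signals, the first locus with most tRNA genes, and the highest locus of each isotype with at least 5 loci, which gave 35 loci; those given by summary only are described by their range. The 4 genes with a printed sequence were added, and other loci named beside the chromosome 13 stretch were chosen after their values were seen. The loci, lists and tests were chosen with earlier results of these data known. Alternatives tried were median scaling, pseudocounts of 0.1 and 5, limits of 1.5-fold and 3-fold, the counting interval, a filter at the 25th percentile, overlap with the gene, 5 kb, loci listed through another library, loci reaching 150, loci off chromosome 13 and loci with 1 tRNA gene. Scripts ran on Python 3.11.15 with pandas 2.3.3, scipy 1.17.1, numpy 2.4.6 and, for plots, matplotlib 3.10.9.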

Additional observations from a re-analysis of the deposited data

How the results depend on the processing

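Median scaling turned 1 result: the median log2 difference of ciNSLCs from day 0 became 0.46. Under it the counts of tRNA loci lower than day 0 were 75 at day 4, 61 at day 8 (with 1 higher), 39 in ciNSLCs (40 higher) and 41 for pri-NPC (8 higher), and against pri-NPC ciNSLCs had 7 lower and 32 higher. With a 1.5-fold limit 1 locus was higher in ciNSLCs than at day 0, 12 were lower in ciNSLCs than at day 8, and 29 were lower and 36 higher in ciNSLCs than in pri-NPC. With a 3-fold limit 53 loci were lower in ciNSLCs and 61 in pri-NPC than at day 0, 35 were higher and 1 lower in ciNSLCs than at day 8, and 7 were lower and 0 higher in ciNSLCs than in pri-NPC. A pseudocount of 5 left 3 loci lower in ciNSLCs than at day 8. Beyond counting error 1 was lower in that comparison, and Gli2 was above Elk1 at 87 loci at day 4. Of those that another library had brought into the table, 26 of 144 were lower in ciNSLCs and 50 of 142 in pri-NPC than at day 0, medians of -0.52 and -0.75. Fewer loci enter without chromosome 13 (127), where 121 were lower at day 4 than at day 0, 113 at day 8, 33 in ciNSLCs and 44 for pri-NPC, 2 in ciNSLCs than at day 8 and 7 than in pri-NPC, and Gli2 was above Elk1 at 127, 110, 119, 121 and 120 loci from day 0 to pri-NPC. The 127 loci with 1 tRNA gene gave 123 lower at day 4, 119 at day 8 and 71 in pri-NPC than at day 0, 76 higher and 3 lower in ciNSLCs than at day 8, and Gli2 above Elk1 at 127, 101, 116, 116 and 117. For the changes under scaling, limits and listing the cause was not tested. The other alternatives (a pseudocount of 0.1, the filter, overlap, 5 kb, reaching 150) left every count of loci within 1.5 times its main value. No paired analysis was possible because each antibody and stage had 1 library and the labels gave no replicate numbers, and for the same reason no library could be left out. Depth limits single loci most at day 4, where the median tRNA locus rested on 8 counted units, and in Elk1, where it rested on 1 or 2.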
